A study of Mus musculus with 2 samples.

Results

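The cells described are fibroblasts of the pressure-overloaded mouse heart that carried transcripts of Cthrc1 and many of Postn. They were picked on raw UMIs (unique molecular identifiers; 1 is counted for each transcript caught). A barcode counted as a fibroblast with at least 1 UMI of Pdgfra, at least 20 UMIs of Dcn, Gsn and Col3a1 together, and none of Ptprc, Csf1r or Cdh5. Activated cells had in addition at least 1 UMI of Cthrc1, at least 10 of Postn, fewer than 3 of Wif1, and fewer than 3 of 8 cycling genes detected (Top2a, Mki67, Birc5, Ube2c, Cdk1, Ccna2, Pclaf and Rrm2). This gave 154 activated fibroblasts among 3722 fibroblasts and 9369 barcodes. They were 4.14% of the fibroblasts (95% Clopper-Pearson interval 3.52 to 4.83%) and 1.64% of all barcodes. The remaining 3568 are called the other fibroblasts.

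The cells came from 1 gene expression library without replicate, made from heart cells other than cardiomyocytes that were sorted as viable. Hearts of 4 Nts KO mice and 3 control mice, aged 6 to 8 weeks, had been taken after 7 days of TAC (transverse aortic constriction, an operation that narrows the aorta so that the heart pumps against high pressure), and their cells were pooled under hashtag antibodies. The title gives both genotypes while the genotype entry reads WT, and the hashtag library was not analysed here, so no cell was tied to a mouse or a genotype. All groups below therefore share the operation and are groups of cells from the same pool, with no unoperated heart beside them.

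With a single pool, cells cannot serve as replicates and no difference below was tested for significance. A level is the sum of a gene's UMIs over a group scaled to the group's total (CPM, counts per 1000000 UMIs), and every interval covers counting error only, at 95%. PCR copies were collapsed by UMI before deposit, but cells of the same mouse are not independent. Because the rule read the transcripts themselves, differences between activated and other fibroblasts are descriptions of cells chosen for 2 of their genes. The rule also favours deeply sequenced cells. Activated fibroblasts had a median of 11046.5 UMIs and 3601 detected genes, against 7671 UMIs and 2849 genes in the other fibroblasts. Ribosomal protein genes took a median of 6.09% of UMIs in activated and 6.27% in other fibroblasts, and mitochondrial genes 0.511% in activated and 0.710% in other fibroblasts. A doublet call fell on 1 activated cell and on 13 of the others. Shares of cells with a UMI said to be at equal depth were taken after each cell was thinned at random to 2500 UMIs, which every cell reached. Other counts and shares of cells are at full depth, where the deeper activated cells are favoured.

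Periostin (Postn) is a secreted matricellular protein that binds collagen and is made by fibroblasts activated by injury or load. Cthrc1 encodes a secreted protein with a collagen-like repeat, first described in injured arteries and since used as a marker of matrix-producing fibroblasts in scarring lung and heart. Activated cardiac fibroblasts derive in large part from resident fibroblasts, lay down interstitial matrix, and can gain contractile filaments such as smooth muscle actin, in which case they are called myofibroblasts. Transforming growth factor beta and mechanical tension are the best known stimuli.

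All 6 given markers were higher than in the other fibroblasts, and all 10 general fibroblast markers were found, of which the rule had used Pdgfra, Dcn, Gsn and Col3a1. They summed to 42989.9 CPM in activated and 61819 CPM in other fibroblasts, with Gsn alone at 7716 CPM in activated and 26274.5 CPM in other fibroblasts. Cthrc1 is located at chr15:39076932-39087121 (plus strand) and Postn at chr3:54361109-54391037 (plus strand) in GRCm38. Both chose the cells. Cthrc1 had 1 to 48 UMIs per activated cell with a median of 3, and Postn 10 to 214 with a median of 33.5. The other 4 markers were not read by the rule. They are Thbs4 (thrombospondin 4, a matricellular glycoprotein of tendon and loaded heart, chr13:92751590-92794818, minus strand), Ddah1 (an enzyme that breaks down an inhibitor of nitric oxide synthase, chr3:145758675-145894277, plus strand), Cilp (a secreted protein of cartilage and of cardiac fibroblasts, chr9:65265180-65280605, plus strand) and Meox1 (a homeobox transcription factor linked to fibroblast activation, chr11:101877510-101894374, minus strand).

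The start regions of the markers present in the RefSeq promoter table (GRCm38.p6) are shown because these genes were all higher in activated than in other fibroblasts. Each run is the 250 bases before the start given in that table, 5′ to 3′ on the gene's strand. For Ddah1 that start lies 17 bases inside the gene as located above. Postn had 2 entries, of which the one nearest to the gene start above was used. Capitals mark matches to CATTCC (a TEAD motif), TGTGGT (a RUNX motif), CAGACA (which holds a SMAD half-site), TGANTCA (AP-1) or a CArG box, on either strand. The windows are chr13:92794819-92795068 for Thbs4 (minus strand), chr9:65264930-65265179 for Cilp (plus strand), chr3:145758442-145758691 for Ddah1 (plus strand) and chr3:54360857-54361106 for Postn (plus strand).
Thbs4: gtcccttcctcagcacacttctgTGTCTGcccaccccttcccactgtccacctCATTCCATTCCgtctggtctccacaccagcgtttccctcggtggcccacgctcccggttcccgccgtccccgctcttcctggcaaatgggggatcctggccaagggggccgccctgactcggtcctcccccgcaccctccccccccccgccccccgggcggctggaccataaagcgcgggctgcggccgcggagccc
Cilp: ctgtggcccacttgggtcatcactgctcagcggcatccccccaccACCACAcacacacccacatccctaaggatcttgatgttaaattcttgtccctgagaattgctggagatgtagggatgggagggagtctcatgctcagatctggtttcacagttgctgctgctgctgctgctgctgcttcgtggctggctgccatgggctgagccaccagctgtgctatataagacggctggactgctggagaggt
Ddah1: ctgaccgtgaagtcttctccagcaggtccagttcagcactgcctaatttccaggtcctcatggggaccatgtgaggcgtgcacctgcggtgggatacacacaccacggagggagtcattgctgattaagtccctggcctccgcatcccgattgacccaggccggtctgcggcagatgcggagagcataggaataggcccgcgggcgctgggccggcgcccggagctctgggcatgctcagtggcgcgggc
Postn: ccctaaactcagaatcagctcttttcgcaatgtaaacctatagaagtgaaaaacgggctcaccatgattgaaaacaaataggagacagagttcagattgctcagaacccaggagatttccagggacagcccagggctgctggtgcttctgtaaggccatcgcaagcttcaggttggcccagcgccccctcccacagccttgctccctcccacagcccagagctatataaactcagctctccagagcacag

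The Thbs4 window held CAGACA on the reverse strand, read as TGTCTG, and CATTCC at 2 positions that overlap by 1 base. The Cilp window held TGTGGT on the reverse strand, read as ACCACA, and the windows of Ddah1 and Postn held no match. Such matches are common: CATTCC was found in 12.6% of all 32851 windows of the table, TGTGGT in 14.0%, CAGACA in 17.1%, TGANTCA in 6.75% and the CArG box in 1.47%. Among 321 windows of 248 genes at least 2-fold higher in activated fibroblasts, the shares were 13.4% for CATTCC, 10.9% for TGTGGT, 16.5% for CAGACA, 6.85% for TGANTCA and 1.25% for the CArG box. In the 293 windows of genes at least 2-fold lower they were 12.6%, 9.22%, 12.6%, 7.17% and 2.05% in the same order, and in the 13421 windows of all genes tested 10.9%, 10.6%, 13.5%, 4.49% and 1.22%. A match is a run of letters, not a shown binding site.

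Thbs4 separated the activated cells most clearly among these markers. It was detected in 75 of 154 activated fibroblasts, with up to 114 UMIs in a cell and a median of 0. Its level was 717 CPM in activated fibroblasts (679 to 757) and 34.9 CPM in the other fibroblasts (32.8 to 37.1), a ratio of 20.5 (18.9 to 22.3). At equal depth 32.5% of activated fibroblasts, 3.20% of other fibroblasts and 0.307% of macrophage-type barcodes, which mark the background of free RNA (median depth 5861 UMIs), had a Thbs4 UMI. Ddah1 reached 155 CPM in activated and 11.5 CPM in other fibroblasts, 13.5-fold (11.5 to 15.9), with equal-depth shares of 24.7% and 1.91%. The Cilp level was 469 CPM in activated and 124 CPM in other fibroblasts, 3.79-fold (3.51 to 4.08), and the Meox1 level 643 CPM in activated and 265 CPM in other fibroblasts, 2.43-fold (2.28 to 2.58). Per activated cell Ddah1 had 0 to 15 UMIs with a median of 0, Cilp 0 to 34 with a median of 2.5, and Meox1 0 to 41 with a median of 5. Without thinning, Cilp was detected in 70.1% of activated and 25.1% of other fibroblasts, and Meox1 in 87.0% of activated and 50.8% of other fibroblasts. Both were therefore common outside the activated cells too.

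Over all genes, 385 of 15376 were at least 2-fold higher in activated fibroblasts (2.5%) and 348 at least 2-fold lower (2.26%), with genes of the rule left out and with an interval that excluded 1. The median log2 ratio of all genes (1 CPM added to each side) was -0.0040. Among the 15 largest ratios were the matrix genes Thbs4, Ccn4, Comp and Fmod, the tendon factor Scx and the contractile gene Tagln. Among the 15 smallest were the chemokines Ccl19, Cxcl14 and Ccl11, and Hsd11b1, Igfbp3 and Penk.

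**Figure D1:**
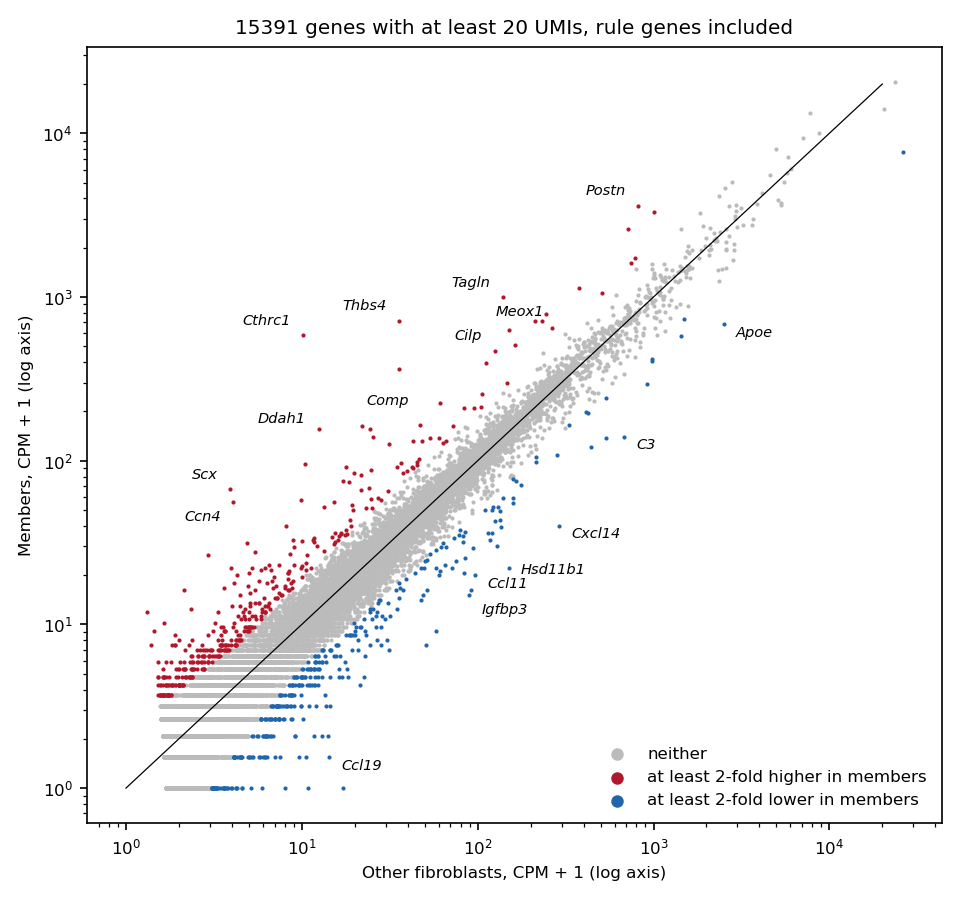
Each point is a gene with at least 20 UMIs over both groups; the vertical axis gives its level in the 154 activated fibroblasts (members) and the horizontal axis its level in the 3568 other fibroblasts, both as CPM with 1 added on log axes, with a line of equality. Red points, Thbs4 at 717 against 34.9 CPM among them, are at least 2-fold higher in activated fibroblasts and blue points, such as Cxcl14 at 39.0 against 290.1 CPM, at least 2-fold lower; Cthrc1 and Postn belong to the rule.

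Of the 28 lists, the matricellular list had the most higher genes. Of its 23 measured genes 10 were higher and 2 lower, and the median log2 ratio of the list was 0.34. Beside Thbs4 and Cilp, Ccn4 (a CCN family protein first found as a Wnt target) had 54.7 CPM in activated and 3.07 CPM in other fibroblasts, 17.8-fold (13.3 to 24.0). Comp, the cartilage oligomeric matrix protein, a relative of Thbs4, was 7.71-fold higher, at 161 CPM in activated and 20.9 CPM in other fibroblasts. Tnc, which codes for the injury-induced glycoprotein tenascin C, was 4.53-fold higher, Fn1 (fibronectin) 3.23-fold and Ccn2 3.30-fold, the last at 3319.7 CPM in activated and 1005 CPM in other fibroblasts. Ccn2, also called CTGF, is a classical target of TGF-beta and of mechanical tension. Ccn5 was 3.17-fold and Aspn (asporin, which binds collagen and TGF-beta) 2.16-fold higher. Spp1 (osteopontin) was 6.37-fold higher, but 81.0% of its 105 UMIs lay in 5 cells. Lower were Tnxb (tenascin X) at 0.448-fold and Smoc2 at 0.427-fold.

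Collagens differed by type. Of 15 fibrillar and associated collagens 5 were higher and 0 lower, with a median log2 ratio of 0.84. Col12a1, which lies along fibrils under tension, was 4.45-fold higher (83.5 CPM in activated and 18.7 CPM in other fibroblasts). Col8a1, a short-chain collagen of remodelling vessels and heart, had 1729 CPM in activated and 779.7 CPM in other fibroblasts, 2.22-fold (2.14 to 2.30), and Col5a2 was 2.06-fold higher. Rare cartilage and tendon collagens had the largest ratios on the smallest counts. Col11a1 was 13.3-fold higher from 28 UMIs in 13 activated cells, and Col22a1 34.9-fold higher (15.2 to 87.0) from 20 UMIs, of which 1 cell held 8. Abundant type I collagen stayed below the 2-fold line, with Col1a1 at 4617 CPM in activated and 2550.5 CPM in other fibroblasts (1.81-fold) and Col1a2 at 1.80-fold. The collagen list took a median of 2.21% of a cell's UMIs in activated and 1.34% in other fibroblasts. Of 15 basement membrane genes 0 were higher and 0 lower, beside 2.5% and 2.26% of all genes, so these counts do not set them apart. Their median log2 ratio was -0.53, and they summed to 4491 CPM in activated and 5767 CPM in other fibroblasts. Col4a1 did not follow that median, at 839 CPM in activated and 823 CPM in other fibroblasts.

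Enzymes that join and shape the matrix were partly higher. In the list of collagen folding, processing and crosslinking 3 of 24 genes were higher and 1 lower (median log2 ratio 0.28). Lox, the lysyl oxidase that crosslinks collagen and elastin, was 3.75-fold higher at 225 CPM in activated and 60.1 CPM in other fibroblasts. Plod2, which hydroxylates lysines that form stable crosslinks, was 2.54-fold and P4ha3, a prolyl hydroxylase subunit, 6.07-fold higher. Sparc, a collagen chaperone among the most abundant transcripts, had 13289 CPM in activated and 7769 CPM in other fibroblasts (1.71-fold). Of 17 elastic fibre genes 2 were higher, 2 lower and the median was 0.43: Ltbp2, which associates with elastic microfibrils, was 6.64-fold and Eln (elastin) 3.61-fold higher, while Efemp1 was 0.310-fold and Fbln1 0.493-fold. Among 16 small leucine-rich proteoglycan and hyaluronan genes 2 were higher and 1 lower (median 0.14). Fmod (fibromodulin, a regulator of fibril assembly in tendon) was 10.1-fold higher (8.28 to 12.2), and Podn 0.447-fold. Timp1, an inhibitor of matrix metalloproteinases, was 3.07-fold higher and the only higher gene of 29 proteases and inhibitors, of which 3 were lower, Mmp3 (0.345-fold) among them.

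Contractile genes were unevenly spread over the activated cells. Of 21 measured genes 4 were higher and 0 lower, with a median log2 ratio of 0.40. Tagln (transgelin, an actin-binding protein of smooth muscle) had 994 CPM in activated and 138 CPM in other fibroblasts, 7.19-fold (6.80 to 7.60). It was detected in 101 activated cells, and 5 of them held 43.5% of its UMIs. Acta2 (smooth muscle actin) was 3.58-fold higher, yet 80 of 154 activated cells had no UMI of it. At equal depth the Acta2 share was 28.6% in activated and 10.6% in other fibroblasts. Actn1 was 3.53-fold and Myl9 2.04-fold higher. With the rule applied after thinning, which kept 16 activated cells, Tagln was 3.06-fold higher but Acta2 (1.63-fold), Eln (1.90-fold) and Timp1 (1.23-fold) stayed under 2-fold. Of the other 6 smooth muscle markers, Myh11 (the smooth muscle myosin) had 1 UMI in all activated cells, Cnn1 had 0, and Lmod1 and Actg2 had 3 each. Mustn1 was 0.521-fold. Rgs4 was 4.83-fold higher (3.23 to 7.07), from 36 UMIs in 23 cells, and 3.92-fold without its highest cell. At least 1 UMI of the 5 mural genes Rgs5, Myh11, Kcnj8, Abcc9 and Notch3 was found in 20.1% of activated and 16.9% of other fibroblasts at full depth, which favours the activated cells. Without these cells on both sides Tagln was 8.04-fold and Acta2 4.20-fold higher. Of the 7 pericyte markers, Rgs5 (3.64-fold) and Cspg4 (8.45-fold, from 14 UMIs in 9 cells) were higher. For Rgs5, 1 cell held 27 of the 38 UMIs and without it the ratio was 1.06. Kcnj8 (0.710-fold), Abcc9 (0.584-fold), Notch3 (0.956-fold) and Vtn (2.16-fold) had intervals that included 1, and Higd1b had 1 UMI. The summed pericyte list was 54.7 CPM in activated and 37.7 CPM in other fibroblasts, with no marker at 0. The summed smooth muscle list, which holds Tagln and Acta2, was 1436 CPM in activated and 302 CPM in other fibroblasts, with 1 of 8 markers at 0. Whether mural transcripts play a part in these values was not tested beyond leaving those cells out. The summed macrophage list was 127 CPM in activated and 181 CPM in other fibroblasts, against 30146 CPM in macrophage-type barcodes, and 2 of 9 markers were at 0 in activated cells, Mrc1 and Csf1r, of which the rule itself requires Csf1r to be 0.

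Transcription factors of tendon and of activation stood out singly. In the activation-linked list 3 of 24 were higher and 0 lower (median -0.01). Scx (scleraxis, the factor that drives tendon development) had 66.1 CPM in activated and 2.90 CPM in other fibroblasts, 22.8-fold (17.1 to 30.5). It was found in 31 activated cells, 20.1% of them, and in 1.15% of the others at full depth. The equal-depth shares were 12.3% of activated and 0.392% of other fibroblasts. Runx1 was 3.67-fold higher and Meox1 is given above. The 18 lineage factors of cardiac fibroblasts had 0 higher and 0 lower members (median -0.13), beside 2.5% and 2.26% of all genes. At such shares a list of 18 may hold no called gene without differing from all genes. Tcf21, which marks resident cardiac fibroblasts, had 449 CPM in activated and 613 CPM in other fibroblasts. The tenocyte, cartilage and bone list shares Scx, Thbs4, Comp, Fmod, Cilp, Col11a1 and Spp1 with the lists above. Of its 29 genes outside the rule, 14 had too few UMIs to be counted. Of the 15 measured, 7 were higher and 0 lower, with a median of 0.72.

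Secreted signals were mixed. Tnfrsf11b, the decoy receptor osteoprotegerin, was 7.78-fold higher, although 1 cell held 32.1% of its UMIs. Of 30 growth factors and binding proteins 4 were higher and 3 lower (median 0.00): Ptn (pleiotrophin) was 3.35-fold, Pdgfa 3.04-fold and Ereg 3.69-fold higher, while Igfbp3 was 0.160-fold. In TGF-beta and BMP signalling 2 of 30 genes were higher and 0 lower (median 0.14), namely Ltbp2 and Gdf6; the ligand Tgfb2 had 152 CPM in activated and 114 CPM in other fibroblasts. Of 22 Wnt genes 2 were higher and 1 lower (median -0.07), Sfrp2, a secreted Wnt modulator, being 4.18-fold higher. Among 41 surface receptors 4 were higher and 2 lower (median -0.10), with Cdh2 (N-cadherin) at 3.09-fold, Ednra (the endothelin A receptor) at 2.67-fold, Cdh11 at 2.03-fold and S1pr3 at 0.279-fold. H19, an imprinted long noncoding RNA, was 13.2-fold higher, but 36 of its 47 UMIs lay in 1 cell and the ratio without it was 3.10. Scube2 was 8.45-fold higher on 21 UMIs and Atp6v0a4, a proton pump subunit, 7.20-fold higher in 26 cells.

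Many genes of resting fibroblasts were lower. In that list 0 of 30 measured genes were higher and 13 lower, with a median log2 ratio of -0.91. Cxcl14, a chemokine of quiescent stroma, had 39.0 CPM in activated and 290.1 CPM in other fibroblasts, 0.135-fold (0.105 to 0.170). Hsd11b1, which regenerates active glucocorticoid, was 0.142-fold, Igfbp3 0.160-fold and Penk (proenkephalin) 0.168-fold. Apoe was 0.272-fold, at 681 CPM in activated and 2505 CPM in other fibroblasts. Clec3b was 0.399-fold. Pi16, a marker of adventitial progenitor-type fibroblasts, did not follow, at 1729.8 CPM in activated and 1804 CPM in other fibroblasts. Low-count genes led the lower side: Ccl19 had 1 UMI in activated cells and a ratio of 0.0407 (0.00103 to 0.228), Aox3, Ntf3 and Tmem38a had 2 UMIs each, and Ces1d 12.

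Some inflammatory ligands and complement genes were lower, although most genes of these lists did not pass 2-fold. Of 19 chemokines 7 were lower and 1 higher (median -0.78). Ccl7, a monocyte attractant, had 136 CPM in activated and 539 CPM in other fibroblasts (0.252-fold), and Ccl11 (eotaxin) was 0.199-fold. Cx3cl1 was the 1 higher chemokine, 2.65-fold. Of 19 complement genes 5 were lower and 0 higher (median -0.61), led by C3 at 139 CPM in activated and 680.2 CPM in other fibroblasts, 0.205-fold (0.180 to 0.232). C1ra and C1s1 were 0.399-fold and 0.402-fold. In the cytokine list 2 of 22 were higher (Lif and Il34) and 4 lower (median -0.35), while Il6 had 126 CPM in activated and 156 CPM in other fibroblasts. The immediate early list, which responds to tissue dissociation, had 0 higher and 0 lower of 20 genes and a median of -0.35. With 2.5% of all genes higher and 2.26% lower, those counts of 0 do not set the list apart. The type I interferon list had 1 of 20 genes higher and 0 lower (median 0.24), and in that gene, Ifit3b, 1 cell held 54.8% of the UMIs.

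In housekeeping programs few genes passed 2-fold, as was so among all genes, of which 2.5% were higher and 2.26% lower. Low counts in these lists are thus not particular to them. The secretory pathway and unfolded protein response, which load on cells that export much matrix, had 0 higher and 0 lower of 38 genes and a median log2 ratio of 0.30. Their summed share of a cell's UMIs had a median of 1.14% in activated and 0.915% in other fibroblasts. Oxidative phosphorylation had 0 called genes in either direction of 24 (median 0.15), glycolysis and hypoxia 0 higher and 2 lower of 22 (median -0.02), and lipid and retinoid handling 1 higher and 2 lower of 26 (median -0.16). The cell cycle list, whose cycling genes the rule limits, had 1 higher and 4 lower of 24 (median -0.26). Ddah1 was the only higher gene of 15 nitric oxide, natriuretic and cGMP genes, with Nppc 0.424-fold and a median of -0.15. In the neurotensin list 1 of 11 genes was higher and 2 lower (median -0.12). The higher gene was Nts itself at 6.50 CPM in activated and 0.828 CPM in other fibroblasts, of whose 12 UMIs 1 cell held 10, and the ratio was 1.32 without that cell. Its receptors Ntsr1 and Ntsr2 had 0 UMIs, which allows a level of up to 1.63 CPM in activated fibroblasts.

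**Figure D2:**
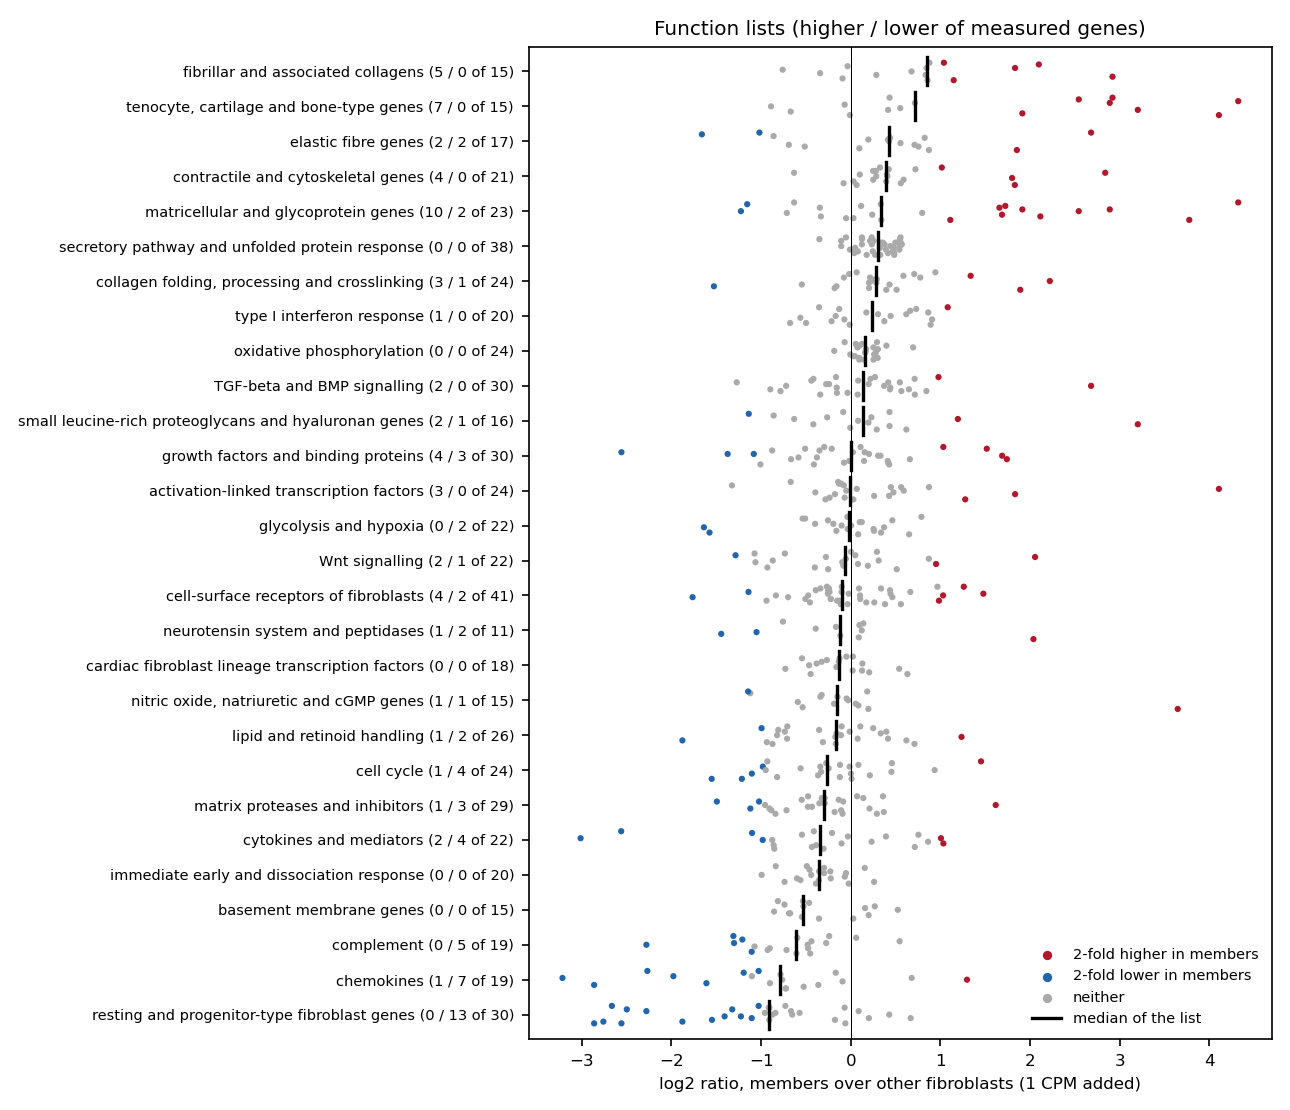
Each row is a gene list and each point a measured gene at its log2 ratio of activated over other fibroblasts (1 CPM added to each side), with the list's median as a black bar and the counts of genes higher and lower of those measured in brackets. Collagens (median 0.84) lie at the top and resting fibroblast genes (median -0.91) at the bottom, and in most lists the points past 2-fold are a minority.

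To see which differences went with Cthrc1 and which with Postn, fibroblasts within the limits on Wif1 and cycling genes were split at the same thresholds. The split gave the 154 activated cells, 694 with Postn but no Cthrc1, 80 with Cthrc1 but fewer than 10 UMIs of Postn, and 2705 with neither. Median depths were 11046.5, 10178.5, 8397.5 and 7015 UMIs in that order, so the groups rich in Postn were the deepest and the part of depth in the grouping was not tested. Against the cells with Postn alone 247 of 12179 genes were at least 2-fold higher (2.03%) and 167 lower (1.37%). Against those with Cthrc1 alone 321 of 9171 were higher (3.5%) and 289 lower (3.15%).

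A first set of genes was highest where both were present. Thbs4 had 717 CPM in activated fibroblasts, 99.6 CPM with Postn alone, 7.36 CPM with Cthrc1 alone and 7.97 CPM with neither. Scx had 66.1, 5.16, 2.94 and 1.65 CPM in the same order, and Fmod 94.8, 10.9, 11.8 and 6.87 CPM. Activated cells were thus 7.20-fold (6.57 to 7.89) above cells with Postn alone for Thbs4, 12.8-fold (8.83 to 18.9) for Scx and 8.72-fold for Fmod. Both groups are deep, and activated cells were the deeper. Tagln (994, 288, 51.5 and 78.6 CPM) and Ddah1 (155, 28.0, 2.94 and 4.66 CPM) were also highest in activated cells and next highest with Postn alone.

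A second set went with Cthrc1 at either level of Postn. Eln had 2599.5 CPM in activated fibroblasts, 672.7 CPM with Postn alone, 2384 CPM with Cthrc1 alone and 692.5 CPM with neither, and against Cthrc1 alone the activated cells were only 1.09-fold higher (1.03 to 1.15). Comp followed the same order, at 161, 11.8, 113 and 17.0 CPM. Cd200, a surface glycoprotein that binds an inhibitory receptor on myeloid cells, had 125, 27.9, 76.5 and 30.3 CPM. Both Eln and Comp were unevenly spread, and the top 5 activated cells held 32.8% of the Eln and 52.3% of the Comp UMIs.

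A further set went with Postn whether or not Cthrc1 was seen. Col8a1 had 1729 CPM in activated fibroblasts, 1489 CPM with Postn alone, 403 CPM with Cthrc1 alone and 520.4 CPM with neither. Meox1 had 643, 519, 179.6 and 163 CPM, and activated cells were 1.24-fold (1.16 to 1.32) above those with Postn alone. Of the resting list, 3 genes were low in both groups with Postn: Cxcl14 had 39.0, 55.4, 261 and 391 CPM, C3 139, 169, 888 and 888 CPM, and Penk 15.2, 16.0, 75.1 and 122 CPM. Hsd11b1 was graded, at 21.1, 67.1, 106 and 186 CPM, and Ccnd1, which codes for cyclin D1, was 0.342-fold in activated cells relative to Postn alone.

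**Figure D3:**
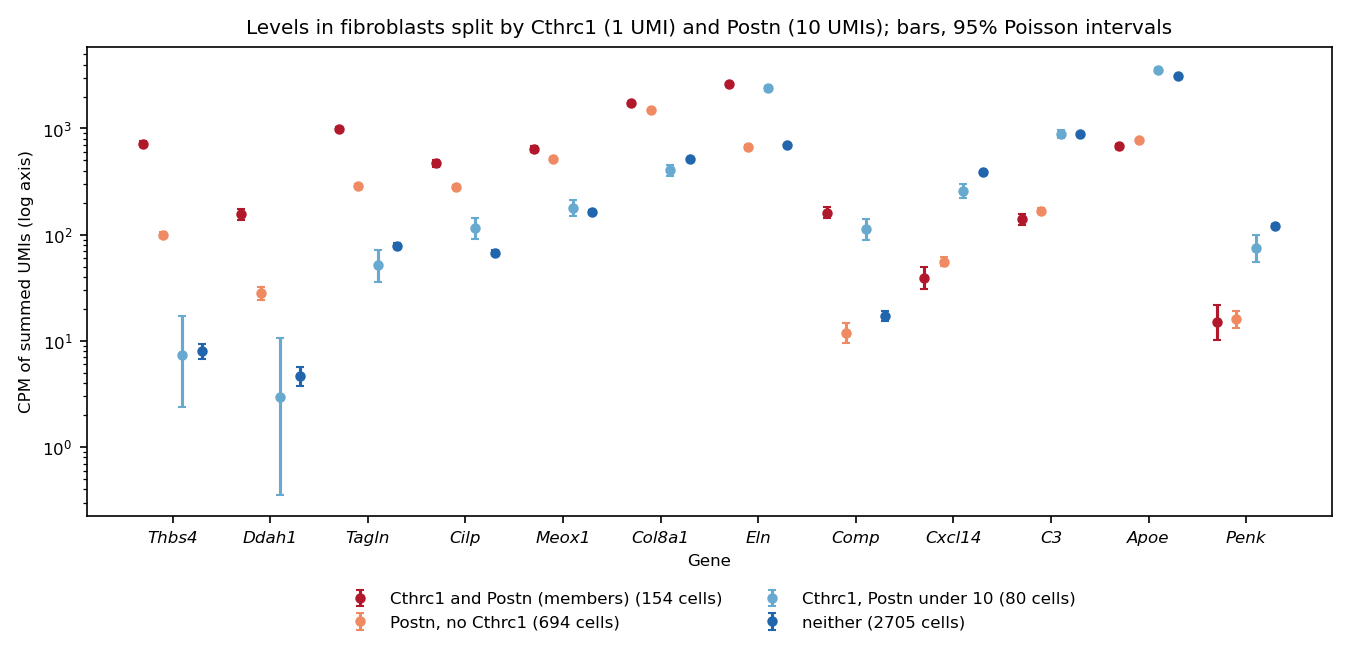
Levels of 12 genes as CPM of summed UMIs (log axis) in activated fibroblasts, in fibroblasts with Postn but no Cthrc1, with Cthrc1 but fewer than 10 UMIs of Postn, and with neither; bars are exact 95% Poisson intervals of counting error. Thbs4 falls off over the first 3 groups (717, 99.6 and 7.36 CPM), Eln is high in both groups with Cthrc1, and Cxcl14, C3, Apoe and Penk are low in both groups with Postn.

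Cells just inside and just outside the Postn threshold are given as a description. The 19 activated cells with 10 to 12 UMIs of Postn had 31.0 CPM of Thbs4 (6 UMIs), 439.7 CPM of Cilp and 388 CPM of Meox1. The 7 cells with 7 to 9 UMIs, otherwise within the rule, had 0 UMIs of Thbs4, 337 CPM of Cilp and 257 CPM of Meox1. With so few cells and UMIs, the 0 UMIs of Thbs4 cannot show a lower level. At the other end of the range, 46 activated cells with at least 50 UMIs of Postn had 1388 CPM of Thbs4. The Cthrc1 threshold was met by a single UMI in 51 activated cells, which had 381 CPM of Thbs4, against 873 CPM in the 103 cells with at least 2.

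Relative to the 13 fibroblasts that met the Cthrc1 and Postn thresholds but had 3 or more cycling genes, 304 of 8534 genes were at least 2-fold higher (3.56%) and 398 lower (4.66%). The 10 smallest ratios included the mitotic genes Cdc20 and Cdca3, and Stmn1 was lower too (96.5 CPM in activated and 1700 CPM in cycling cells). Cthrc1 was 0.931-fold (0.764 to 1.14) and Postn 0.969-fold (0.893 to 1.05) of the cycling level. Both groups had passed the same thresholds of Cthrc1 and Postn, so similar levels follow in part from the choice of cells. The lower mitotic genes likewise follow in part from the split on cycling genes. Aspn was 4.42-fold and Klf4 4.62-fold higher in the activated cells, and Thbs4 2.39-fold. The 13 cycling cells had a median depth of 14126 UMIs, against 11046.5 UMIs in activated cells. How single cycling cells weighed on these ratios was not examined.

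Only 1 fibroblast met both thresholds with 3 or more UMIs of Wif1, so the activated cells were set beside all 23 other fibroblasts with 3 or more. This Wif1 group was chosen after that count was seen. Its median depth was 6693 UMIs, against 11046.5 UMIs in activated cells, and the weight of its single cells was not examined. Against the Wif1 group 525 of 8571 genes were at least 2-fold higher (6.13%) and 402 lower (4.69%). The Wif1 group was richer in some of the same tendon-type genes: Comp had 161 CPM in activated and 513 CPM in Wif1-high cells (0.315-fold, 0.249 to 0.401), and Fmod 94.8 CPM in activated and 224 CPM in Wif1-high cells (0.424-fold). Scx did not pass 2-fold, at 66.1 CPM in activated and 38.2 CPM in Wif1-high cells. Col8a1 (19.8-fold), Eln (20.7-fold), Fn1 (24.1-fold), Cilp (21.5-fold) and Thbs4 (16.4-fold) were higher in activated cells. The Wnt agonist Rspo3 had 3 UMIs in activated cells and 322 CPM in Wif1-high cells, a ratio of 0.00505 (0.00101 to 0.0155).

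Within the activated fibroblasts, cells were ranked by Postn per UMI, and the 51 highest (Postn-high) were set beside the 51 lowest (Postn-low). Postn was 6968 CPM in Postn-high and 1403 CPM in Postn-low cells, and median depth 10248 UMIs in Postn-high and 11902 UMIs in Postn-low cells. Of 6938 genes 121 were at least 2-fold higher in Postn-high cells (1.74%) and 180 lower (2.59%), with Postn left out of the totals. Thbs4 had 1309 CPM in Postn-high and 239.7 CPM in Postn-low cells, 5.46-fold (4.60 to 6.52), and was detected in 34 Postn-high and 14 Postn-low cells. Aspn was 3.38-fold, Cilp 3.30-fold, Ddah1 3.20-fold, Ptn 3.14-fold and Scx 4.05-fold higher, and Cthrc1 itself 2.08-fold (1.79 to 2.42). Of the 12 measured tenocyte, cartilage and bone genes 8 were higher and 1 lower, with a median log2 ratio of 1.55. Of the 8, Spp1 (3.08-fold) and Comp (2.21-fold) were under 2-fold without their highest Postn-high cell, at 1.03 and 1.76.

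Of 19 measured contractile genes 0 were higher and 0 lower in Postn-high cells, beside 1.74% and 2.59% of all genes. At such shares a list of 19 may hold no called gene without differing from all genes. Acta2 had 341 CPM in Postn-high and 333 CPM in Postn-low cells, and Tagln 764 CPM in Postn-high and 659.8 CPM in Postn-low cells. Single cells weighed on both. In Postn-low cells 1 cell held 155 of 446 Tagln UMIs and 1 held 71 of 225 Acta2 UMIs. Without the highest Postn-low cell the ratios were 1.73 for Tagln and 1.46 for Acta2. Without the highest Postn-high cell they were 0.952 and 0.780. Eln had 1625 CPM in Postn-high and 2735 CPM in Postn-low cells, a ratio of 0.594. In Postn-high cells 1 cell held 376 of its 878 UMIs, and the ratio without that cell was 0.349. In Postn-low cells 1 cell held 272 of its 1849 UMIs, and the ratio without that cell was 0.686. Of 29 resting genes 0 were higher and 10 lower. Apoe had 335 CPM in Postn-high and 1337 CPM in Postn-low cells (0.250-fold), C3 was 0.262-fold, and Penk and Ccl11 had 0 UMIs in Postn-high cells, so were at least 6.13-fold and 6.39-fold lower against the floor of 3 counts. Osr1 (0.313-fold) and Cxcl2 (0.247-fold) were lower as well.

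Several extreme ratios between these cells came from few of them. The type I interferon list had 6 of 17 genes higher and 0 lower (median 0.79), but 34 of the 38 Ifit3b UMIs and 66 of the 94 Ifit3 UMIs of the Postn-high cells lay in 1 cell each, and without that cell the ratios were 0.858 and 1.29. Without their highest cell H19 was 0.318-fold, Rgs5 0.213-fold and Rsad2 1.29-fold, where the full ratios were 5.94, 5.84 and 6.88. Ankrd1, a stretch-responsive gene, had 28 UMIs in 7 Postn-high cells and 1 UMI in Postn-low cells. Cnmd had a ratio of 0.0676, with 34 of its 37 UMIs of the Postn-low cells in 1 cell and a ratio of 0.807 without it. Igfbp5 was 0.0782-fold in all cells and 0.192-fold without its highest Postn-low cell. Thbs4 was 4.71-fold higher without its highest Postn-high cell and Scx 3.23-fold.

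**Figure D4:**
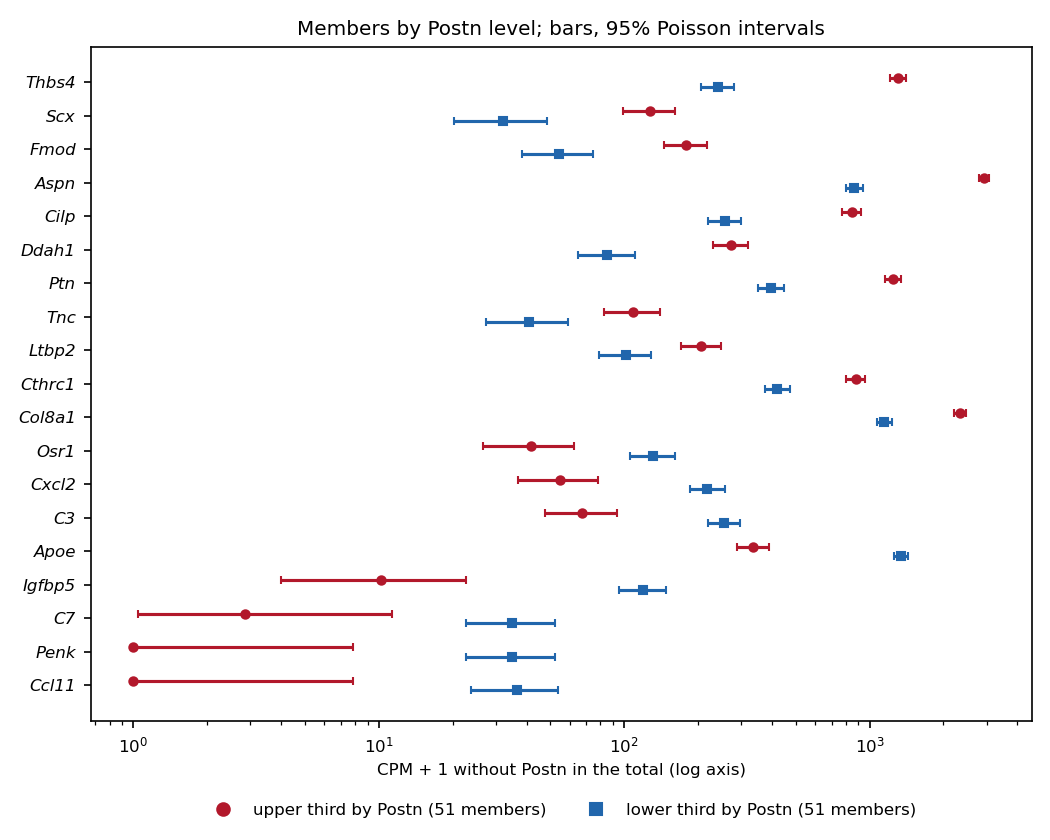
Levels of 19 genes in the Postn-high (circles) and Postn-low (squares) activated fibroblasts, 51 cells each, as CPM with 1 added and Postn left out of the total, on a log axis; bars are exact 95% Poisson intervals of counting error. Thbs4 (1309 against 239.7 CPM), Scx and Aspn are higher in Postn-high cells, and Apoe (335 against 1337 CPM), C3, Penk and Ccl11 are lower.

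Across the 154 cells, the genes most alike Postn by Spearman correlation of UMIs scaled to the cell's total, among 5410 genes with at least 0.3 UMIs per cell, were Aspn (rho 0.47), Col5a2 (0.42), Thbs4 (0.40), Cthrc1 (0.36), Srpx2, Col8a1, Ddah1, Runx1, Pamr1 and Fstl1 (0.30). The genes most alike Cthrc1 were Col1a2 (0.45), Fbln5 (0.44), Sfrp2 (0.44), Col5a2 (0.43), Csrp2, Cpe, Lox, Fn1, Col1a1 and Mfap4 (0.36). Col5a2 stood in both lists. Gsn was farthest from Cthrc1 (-0.43). All cells share 1 library, and the rank correlation with a cell's total UMIs was -0.19 for Postn and -0.10 for Cthrc1.

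Fibroblasts were clustered without the genes of the rule and without the cell type markers, which gave 13 clusters. Thbs4, Ddah1, Cilp, Meox1, Tagln and Acta2 were among the markers left out. The activated cells did not form a cluster of their own there, which cannot show whether they would with those genes kept. Of the 154 activated cells 69 (44.8%) lay in cluster 6, which held 419 cells and 9.81% of the other fibroblasts, and whose leading genes were Thbs4, Actc1, Ddah1, Tagln and Fmod. Actc1 codes for cardiac actin and is a cardiomyocyte marker. It had 8 UMIs in all activated cells, 4.34 CPM, against 11.5 CPM in other fibroblasts. The 8 cardiomyocyte markers summed to 18.97 CPM in activated and 38.3 CPM in other fibroblasts, with 3 at 0 in activated cells. These 8 were among the markers left out of the clustering. Whether other cardiomyocyte transcripts play a part in the clusters was not tested. Another 21 lay in cluster 1 (led by Stmn4, Sema3c and Efhd1), 18 in cluster 11 (Has1, Il6, Cxcl2) and 12 in cluster 10 (Osr1, Eln, Kcnj15). The clusters led by Cxcl14 and Ccl11, numbers 3 and 9, held 15.1% and 12.1% of the other fibroblasts but 1 and 0 activated cells.

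**Figure D5:**
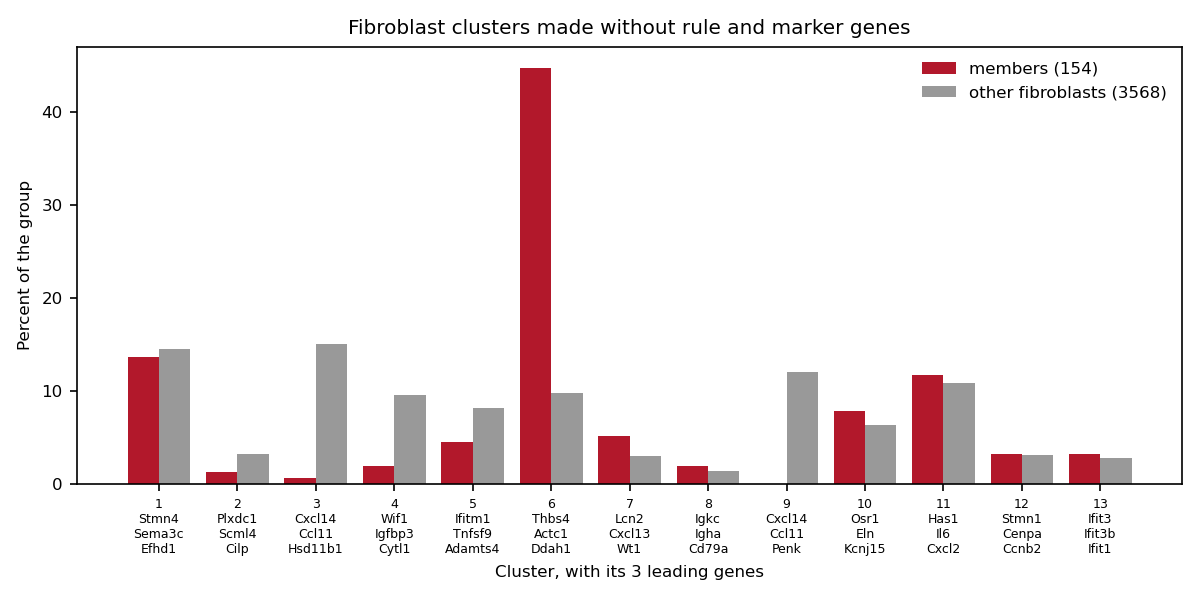
For each of 13 fibroblast clusters, bars give the percent of the 154 activated cells (members, red) and of the 3568 other fibroblasts (grey) that it held; the 3 leading genes by fold over the remaining fibroblasts stand under each number. Cluster 6, led by Thbs4, held 44.8% of the activated cells and 9.81% of the other fibroblasts, and cluster 9 held 0 activated cells.

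Activated cells of different clusters differed in many genes, Postn among them. Postn, of which the rule required 10 UMIs in each cell, was 4550.3 CPM in those of cluster 6, 3317 CPM in cluster 1, 3370 CPM in cluster 11 and 2932 CPM in cluster 10. The activated cells of cluster 6 were highest of these 4 groups in some tendon-type and contractile genes, with Thbs4 at 1231 CPM (1155 to 1311), Tagln at 1706 CPM and 109 of the 122 Scx UMIs. Tagln was 971 CPM in cluster 10 and 672 CPM in cluster 11. Comp was 255 CPM in cluster 6 and 253 CPM in cluster 11, and Col22a1 was 8.91 CPM in cluster 6 and 74.2 CPM in cluster 10, which held 12 of its 20 UMIs. The 12 activated cells of cluster 10 were rich in elastin: Eln was 14161 CPM (13587 to 14753) there, against 1772 CPM in cluster 6, so that these 12 cells held 2289 of the 4797 Eln UMIs of all activated cells. They also had 680.5 CPM of Osr1, 1590 CPM of Sfrp2 and 1342 CPM of Cthrc1, with 0 UMIs of Scx. In the 21 cells of cluster 1 Pi16 was 3903 CPM, Cd248 608 CPM and Sema3c 192 CPM, with Thbs4 at 201 CPM. In the 18 cells of cluster 11 Cthrc1 was lowest of the 4 groups, at 253 CPM, and Has1, which codes for a hyaluronan synthase, reached 284 CPM. The clusters were made from these genes in part, so these levels describe the groups and test nothing.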

How the data were processed

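The deposited matrix holds whole-number UMI counts per gene and barcode without normalization, per the file headers and values (56953 genes and the CreERT2 transgene, 9369 barcodes of 2567 to 42567 UMIs, median 6663). The submitters' processing notes name STARsolo, Scanpy and mm10; how barcodes were called as cells is not given in the sources used here. Gene IDs were used as deposited, and 91.4% of them are in GENCODE vM21, the source of coordinates; symbols shared by several IDs were left out.

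The rule, the members and the gene lists were chosen with earlier results of these data known. UMIs were summed per group and scaled to CPM. Ratios have exact binomial, levels exact Poisson and shares Clopper-Pearson intervals at 95%. Genes needed 20 UMIs summed over the pair of groups, and counted as higher or lower at a ratio of 2 or more, or 0.5 or less, with an interval excluding 1. Genes were named by rule: the given markers, the 15 largest and 15 smallest ratios among genes with at least 10 CPM on the higher side, the leading and most abundant genes of 28 function lists (695 entries, which overlap), the 10 most extreme on each side of further comparisons, and the 10 most alike Postn and Cthrc1. Genes named outside it (Cd200, Tgfb2, Cd248, Sema3c and other examples) were picked after their values were seen. Scrublet called 357 doublets (3.81%), which were kept. Clusters used 2000 variable genes, 30 principal components, 15 neighbours and Leiden resolution 1 (Python 3.11.15, scanpy 1.11.5, scipy 1.17.1). The calculation was tested on simulated data. Those data held counting error only, with no spread between cells, so the test bears on the calculation and not on the calls. With 1 library there were no replicates and no tests. Some genes that the naming rule picked are not reported here.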

Additional observations from a re-analysis of the deposited data

How the results depend on the processing

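No paired analysis was possible because 1 gene expression library was analysed, the hashtag library that ties cells to mice was not analysed here, and no result comes from a test. Thresholds on raw UMIs depend on depth: applied after thinning every cell to 2500 UMIs, the rule left 16 cells in place of 154, and the median log2 ratio of all genes moved to -0.20. The ratios of Eln (1.90), Acta2 (1.63) and Timp1 (1.23) were then under 2, while Thbs4 was 29.4-fold and Ddah1 14.7-fold higher. With a Leiden resolution of 0.5 the cluster with most activated cells held 35.7% of them. Its leading genes included Thbs4, Osr1 and Eln, which led separate clusters (6 and 10) at resolution 1. Over 12 alternatives (2 of the Postn threshold, Cthrc1 at 2, thinned cells or rule, doublets removed, equal weight per cell, median scaling, a narrower other side, a minimum of 50 or 1 UMIs, and, added after seeing the data, no cells with mural UMIs), genes higher numbered 279 to 543 and genes lower 234 to 418. The 2 alternatives that change the minimum of UMIs leave a gene's ratio as it is, so they bear on the counts only. Of 81 named genes past 2-fold, 56 stayed past it in each alternative. Those that turned round were, with the thinned rule, Col22a1, H19, P4ha3, Hapln1, Gdf6, Sfrp4, Ifit3b, Mcm2 and Nts (all 0 UMIs in the 16 cells, ratio 0) and Abca1 (1.06); with Cthrc1 at 2, Mcm2 (0.999); without doublets, Hapln1 (0.926); with thinned cells, Il34 (0.891) and Ccnb1 (1.29); and without Wif1-high and cycling cells in the other side, Ccnb1 (2.53). The cause was not tested. A fibroblast threshold of 40 UMIs left 154 cells; ratios were not recomputed there.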
